A study of Homo sapiens with 23 samples.

Results

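In C-33A cells, the mimic of miR-23b-3p was set against the mimic of miR-124-3p, gene by gene, over 12789 of the 61217 listed genes. A gene was a member where its average log2 CPM (read counts scaled to a common library total) was 1 or more in both of the authors' deposited tables for these mimics. The quantity followed throughout is the mimic difference, which is the log2 fold change of miR-23b-3p over the negative control minus that of miR-124-3p over the same control. C-33A is an established cervical squamous carcinoma cell line without human papillomavirus, per the labels. The miR-23b-3p group holds 3 libraries, the miR-124-3p group 2 and the negative control 3, each of cells that received 100 nM of its oligonucleotide. Within a series of 23 polyA RNA libraries in 8 groups, the same contrast was also available in CaSki, a cervical line that carries human papillomavirus per the labels. There, each group holds 3 libraries at the same dose of 100 nM, and 13018 genes were compared. The labels leave it unsaid whether the libraries of 1 group stem from separate cultures, and the p-values therefore measure a spread between libraries that may be technical. The titles number replicates from 1 to 3, and replicate 1 is absent from the C-33A miR-124-3p group. Anything particular to replicate 1 would therefore not cancel in the C-33A contrast.

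A microRNA is a short RNA that guides Argonaute proteins to messenger RNAs. Its seed, the stretch from position 2 to position 8, pairs with matching sites, mostly in 3' UTRs, and the bound transcripts are translated less and decay faster. A mimic is a synthetic duplex that loads the mature strand into the cell's own Argonaute. miR-124-3p is abundant in neurons and is known for lowering non-neuronal transcripts, among them PTBP1, ITGB1 and the small CTD phosphatases. miR-23b-3p is made from a cluster with miR-27b and miR-24 and is known for targets in inflammatory, Notch and TGF-beta signalling.

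The mature miR-23b-3p is shown because its seed defines the sites counted in the 3' UTRs. The sequence is from RefSeq (GRCh38.p14, chr9:95085265-95085287, plus strand), with the seed in capitals.
hsa-miR-23b-3p: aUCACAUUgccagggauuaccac

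A site for miR-23b-3p was the motif AATGTGA in the 3' UTR, and a site for miR-124-3p was the motif GTGCCTT, both read on the strand of the transcript. An 8mer is such a motif followed by an A. The stretches of 30 bases listed here come from 3' UTRs of GENCODE release 29 (GRCh38), with the motif and, in an 8mer, the A after it in capitals. The miR-23b-3p sites belong to FAM234B (chr12:13080872-13080901, plus strand), which had the most negative difference, to SESN3 (chr11:95172588-95172617, minus strand) and EIF4EBP2 (chr10:70423722-70423751, plus strand), regulators of mTORC1 output, and to SEC23A (chr14:39032809-39032838, minus strand), a COPII coat subunit.
FAM234B: gatcgtttggaAATGTGAAtctcttaagta
SESN3: gcccataatttAATGTGAAattaatcatga
EIF4EBP2: tctgccacaaaAATGTGAAtagttcagagt
SEC23A: tagtaatgataAATGTGAAcatttttgctt

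The miR-124-3p sites belong to genes that were higher with miR-23b-3p than with miR-124-3p. They are the cell cycle regulator CCND2 (chr12:4304726-4304755, plus strand), the membrane proteolipid PLP2 (chrX:49174803-49174832, plus strand), the endoplasmic reticulum stress protein SERP1 (chr3:150542795-150542824, minus strand) and the phosphatase CTDSP1 (chr2:218404621-218404650, plus strand).
CCND2: ggggaaataaaGTGCCTTActgactgtagc
PLP2: ttgaggtaaaaGTGCCTTtattgggagact
SERP1: attcatagcagGTGCCTTAttctttgcttt
CTDSP1: gccccgtgtcaGTGCCTTcaaacctcctcc

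No values per library were analysed here, so depth is unknown. A level in CPM is that of a whole group, recovered from the average CPM and the fold change of a deposited table, and it compares groups for 1 gene, not genes with each other. In C-33A the level of the control recovered from the miR-23b-3p table differed from that of the miR-124-3p table by a median of -0.03 on the log2 scale. The SD over genes was 0.00191, so the shared control cancelled there to a near constant. In CaSki the median was -0.0016 with an SD over genes of 0.117, so the control did not cancel to a near constant. The CaSki test still took it to cancel, and the effect on the CaSki calls was not tested. Of the epithelial and squamous markers, KRT8 and KRT18 lay between 1.32 and 1.96 CPM in the miR-23b-3p, miR-124-3p and control groups, and EPCAM, KRT19, CDH1, KRT5, KRT14 and TP63 lay under 1 CPM in all 3. VIM, a mesenchymal marker, stood at 96.9 CPM with miR-23b-3p, 60.5 CPM with miR-124-3p and 97.9 CPM in the control, and COL3A1 at 143, 143 and 150 CPM in the same order. Of the other markers of fibroblasts, leukocytes and endothelial cells, COL1A2 (7.47, 6.98 and 7.89 CPM) and PTPRC (7.38, 6.16 and 5.35 CPM) were above 1 CPM. The label of a squamous line is thus not borne out by keratin or TP63 transcripts, and the cells are called here by the line's name.

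Of the 12789 genes, 289 (2.26%) passed at a Benjamini-Hochberg adjusted p under 0.05 in a two-sided normal test. The 223 genes higher with miR-23b-3p (1.74%) outnumbered the 66 genes lower with it (0.516%). The median difference over all genes was 0.02, with an SD of 0.29 and quartiles at -0.15 and 0.20, and the smallest difference that passed was 0.58 in size. The median standard error (SE) of a difference was 0.21. Of the genes on either side of the threshold, P4HA1 passed with a difference of 0.61 (adjusted p = 0.0499) and CEBPG, a partner of CEBP factors, missed it with 0.60 (adjusted p = 0.0503). The level that admits a gene was met just by TAF12-DT (difference -0.35) and FBXO32 (-0.34) and just missed by CSTF3-DT (-0.01) and IGSF11 (-0.12).

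Most of the genes that passed lay on opposite sides of the control in the mimic groups. Choosing genes by a large difference favours such opposite signs, so these counts describe the genes and are no test. Among the 223 higher genes, 176 were above the control with miR-23b-3p and below it with miR-124-3p, and among the 66 lower genes 58 were below it with miR-23b-3p and above it with miR-124-3p. The larger change from the control was with miR-124-3p in 178 of the 223 higher genes and with miR-23b-3p in 38 of the 66 lower genes. Against the control alone, 201 of the 289 were past a deposited FDR of 0.05 in neither of the authors' deposited tables. Of 19 genes (0.149%) that fell with miR-23b-3p in the authors' deposited table, 12 passed here, and of 9 (0.0704%) that rose 7 passed. In the authors' deposited table for miR-124-3p, 80 genes (0.626%) fell, of which 68 passed here, and 18 (0.141%) rose, of which 2 passed. TRIB3 was past the FDR threshold in both of the authors' deposited tables.

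**Figure D1:**
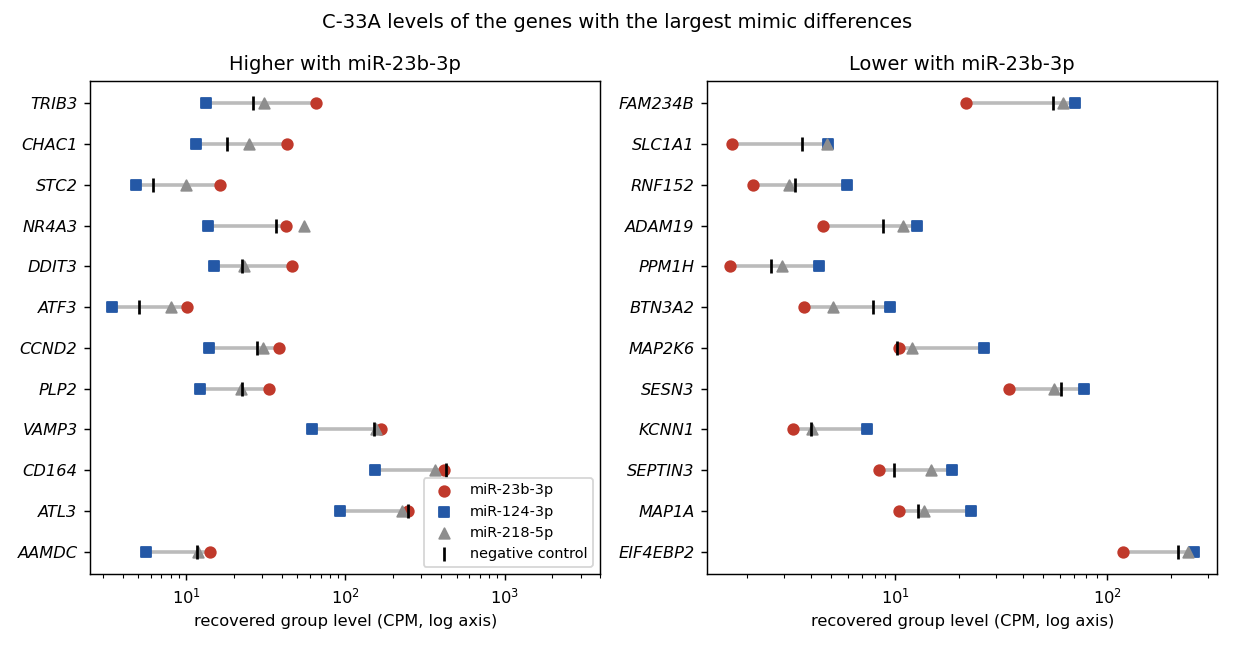
Group levels in CPM (log axis) of the 12 protein coding genes with the most positive and the 12 with the most negative mimic difference in C-33A; red circles are miR-23b-3p, blue squares miR-124-3p, grey triangles miR-218-5p and black bars the negative control, and the grey line joins the mimics compared. TRIB3 stands at 65.8 CPM with miR-23b-3p and 13.3 CPM with miR-124-3p, and FAM234B at 21.5 and 70.8 CPM.

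The 3 most positive differences, those of TRIB3, CHAC1 and STC2, belonged to genes of the integrated stress response, the programme in which phosphorylated eIF2 slows translation and ATF4 switches on stress genes. TRIB3, a pseudokinase induced by ATF4, stood at 65.8 CPM with miR-23b-3p, 13.3 CPM with miR-124-3p, 30.8 CPM with miR-218-5p and 26.4 CPM in the control (difference 2.33, SE 0.21, adjusted p = 1.31e-24). CHAC1, an enzyme that degrades glutathione, stood at 42.9, 11.6, 24.9 and 18.1 CPM in the same order (1.91, SE 0.22, adjusted p = 3.02e-14). Both genes were highest with miR-23b-3p and lowest with miR-124-3p, with the miR-218-5p group between them. STC2, a secreted glycoprotein, stood at 16.4 CPM with miR-23b-3p, 4.83 CPM with miR-124-3p and 6.24 CPM in the control (1.80, SE 0.27, adjusted p = 4.3e-08). DDIT3, the transcription factor CHOP, stood at 46.1, 15 and 22.6 CPM (1.64, SE 0.21, adjusted p = 2.45e-11), and ATF3 at 10.1, 3.44 and 5.09 CPM (1.59, SE 0.30, adjusted p = 2.95e-05). All 5 genes were above the control with miR-23b-3p and below it with miR-124-3p. Of the falls with miR-124-3p, that of TRIB3 passed a deposited FDR of 0.05 (0.00408) and the others did not, among them CHAC1 (0.631) and DDIT3 (0.731). With miR-23b-3p the rise of ATF3 did not pass (0.103).

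Of 23 stress response genes compared, 10 were higher with miR-23b-3p than with miR-124-3p and 0 were lower, against 1.74% and 0.516% of all genes, and the list's median difference was 0.60. ATF4 itself, the central transcription factor, stood at 446 CPM with miR-23b-3p, 237 CPM with miR-124-3p and 299.98 CPM in the control (0.94, SE 0.18, adjusted p = 3.24e-05). CEBPB, a bZIP partner of ATF4, stood at 60.2, 30.3 and 31.8 CPM (1.02), PCK2, the mitochondrial PEP carboxykinase, at 37.4, 19.4 and 20.8 CPM (0.97), and JDP2, a repressor of AP-1, at 12.3, 6.78 and 6.51 CPM (0.89). DDIT4, an inhibitor of mTORC1, completed the 10 at 29.3, 18.1 and 17.7 CPM (0.72). In CEBPB, PCK2, JDP2 and DDIT4 the miR-124-3p level lay close to the control and the miR-23b-3p level stood apart. Against the control, ATF4 (deposited FDR 0.410), JDP2 (0.126) and DDIT4 (0.195) did not pass with miR-23b-3p. With miR-124-3p, TRIB3 was the 1 member of the list that passed against the control. The 4 kinases that phosphorylate eIF2 did not pass, with differences of 0.15 for EIF2AK3 (PERK), -0.16 for EIF2AK1 and EIF2AK2 and -0.21 for EIF2AK4 (GCN2). Under all the alternatives tried for named genes, TRIB3, CHAC1, STC2, DDIT3 and ATF3 kept their calls.

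Genes for making and importing amino acids, many of them known targets of ATF4, lay on the same side. Of 20 compared, 7 were higher with miR-23b-3p and 0 were lower, against 1.74% and 0.516% of all genes. A difference above 0 was found in 19, against 53.5% of all genes, and the median was 0.53. SLC7A11, the cystine and glutamate exchanger, stood at 170 CPM with miR-23b-3p, 73.5 CPM with miR-124-3p and 94.6 CPM in the control (1.23, SE 0.18, adjusted p = 1.14e-08), and its partner chain SLC3A2 at 255, 157 and 172 CPM (0.72, adjusted p = 0.00487). MTHFD2, of mitochondrial one-carbon metabolism, stood at 409, 230 and 299 CPM (0.85, adjusted p = 0.000285). PSAT1, of serine synthesis, stood at 217, 125 and 147 CPM (0.82, adjusted p = 0.000789). The other members that passed were PHGDH (0.63), which opens serine synthesis, PYCR1 (0.65), of proline synthesis, and SLC1A4 (0.69), a neutral amino acid transporter. With the errors of both tables added as independent, SLC7A11 kept its call and MTHFD2, PSAT1 and SLC3A2 did not (adjusted p = 0.0606, 0.105 and 0.243).

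The aminoacyl-tRNA synthetases, which charge tRNAs and are also known as ATF4 targets, showed smaller differences. Of 19 compared, 5 were higher with miR-23b-3p and 0 were lower, against 1.74% and 0.516% of all genes. Differences above 0 numbered 18, against 53.5% of all genes, and the median was 0.32. GARS1 stood at 329 CPM with miR-23b-3p, 197 CPM with miR-124-3p and 210 CPM in the control (0.77, SE 0.18, adjusted p = 0.00206), and SARS1 at 192, 122 and 128 CPM (0.68, adjusted p = 0.0124). YARS1 (0.65), WARS1 (0.60) and MARS1 (0.58) made up the 5. QARS1 had the lowest value of the family, -0.13. None of GARS1, SARS1, YARS1 and MARS1 kept its call with errors added as independent, where the lowest adjusted p of the 4 was 0.157.

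Promoters of these genes were searched for TGATGCAA, a form of the CCAAT-enhancer binding protein and ATF response element, on both strands in a window of 300 bases from RefSeq, 250 bases before to 50 after the transcription start. The motif was present in 43 of 9323 promoters of the genes compared (0.461%). It was present in 6 of 16 promoters of tRNA synthetases (37.5%), those of AARS1, CARS1, IARS1, MARS1, NARS1 and TARS1. It was also in 2 of 15 promoters of the amino acid list (MTHFD1L and GOT1) and in 1 of 20 of the stress response list (CHAC1). The stretches shown hold the match in capitals, read there as the reverse complement TTGCATCA, in CHAC1 (chr15:40953251-40953280, plus strand), MARS1 (chr12:57488053-57488082, plus strand) and AARS1 (chr16:70289675-70289704, minus strand), all from RefSeq (GRCh38.p14).
CHAC1: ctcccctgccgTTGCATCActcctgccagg
MARS1: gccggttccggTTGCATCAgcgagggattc
AARS1: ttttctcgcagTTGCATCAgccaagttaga

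The mimic difference was 1.91 for CHAC1 and 0.58 for MARS1, which passed, and 0.32 for AARS1, which did not (adjusted p = 0.529). MARS1 also lost its call with centring, with recovered levels, with the length trend removed and with errors scaled up to the spread of the differences. Among chaperones and sensors of the endoplasmic reticulum, another arm of the stress response, the median was 0.08. Here 2 of 20 were higher with miR-23b-3p and 0 lower, against 1.74% and 0.516% of all genes. They were XBP1, a transcription factor of the unfolded protein response, at 96.5 CPM with miR-23b-3p and 57.8 CPM with miR-124-3p (0.77, adjusted p = 0.00379), and HERPUD1, of protein degradation at this membrane, at 33.7 and 20.3 CPM (0.75, adjusted p = 0.0242). The chaperones HSPA5 (0.35), HSP90B1 (0.06), CALR (0.04) and PDIA4 (-0.03) did not pass.

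Immediate early transcription factors, which are switched on within minutes by growth factors, had the highest list median, 0.88. Of 13 compared, all had a difference above 0, against 53.5% of all genes. The test was passed as higher with miR-23b-3p by 7 and as lower by 0, against 1.74% and 0.516% of all genes. JUN stood at 49.0 CPM with miR-23b-3p, 19.7 CPM with miR-124-3p and 34.2 CPM in the control (1.34, SE 0.20, adjusted p = 3.86e-08). EGR1 stood at 48.1, 19.9 and 45.5 CPM (1.30, SE 0.21, adjusted p = 2.39e-07). Among the related nuclear receptors, NR4A3, which is not on the list, stood at 42.4, 13.8 and 36.5 CPM (1.64, SE 0.21, adjusted p = 3.63e-12), and NR4A1 at 11.1, 4.80 and 8.27 CPM (1.25, adjusted p = 0.000693). In EGR1 and NR4A3 the miR-23b-3p level was near the control and the miR-124-3p level was far under it. FOS (1.08), JUNB (0.94), IER2 (0.91) and MAFF (0.88) were the other members that passed, and SRF (0.20) had the smallest difference of the list. IER5L, a relative of IER2 that is on no list, stood at 21.7 CPM with miR-23b-3p, 8.79 CPM with miR-124-3p and 16.6 CPM in the control (1.33, adjusted p = 4.15e-06). Of 27 genes of the RAS and MAPK cascade, the GTPase NRAS (321 and 164 CPM, 0.99, adjusted p = 8.28e-06), the kinase ARAF (0.75) and the adaptor GRB2 (0.63) were higher with miR-23b-3p and 0 were lower. The shares over all genes were 1.74% and 0.516%.

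**Figure D2:**
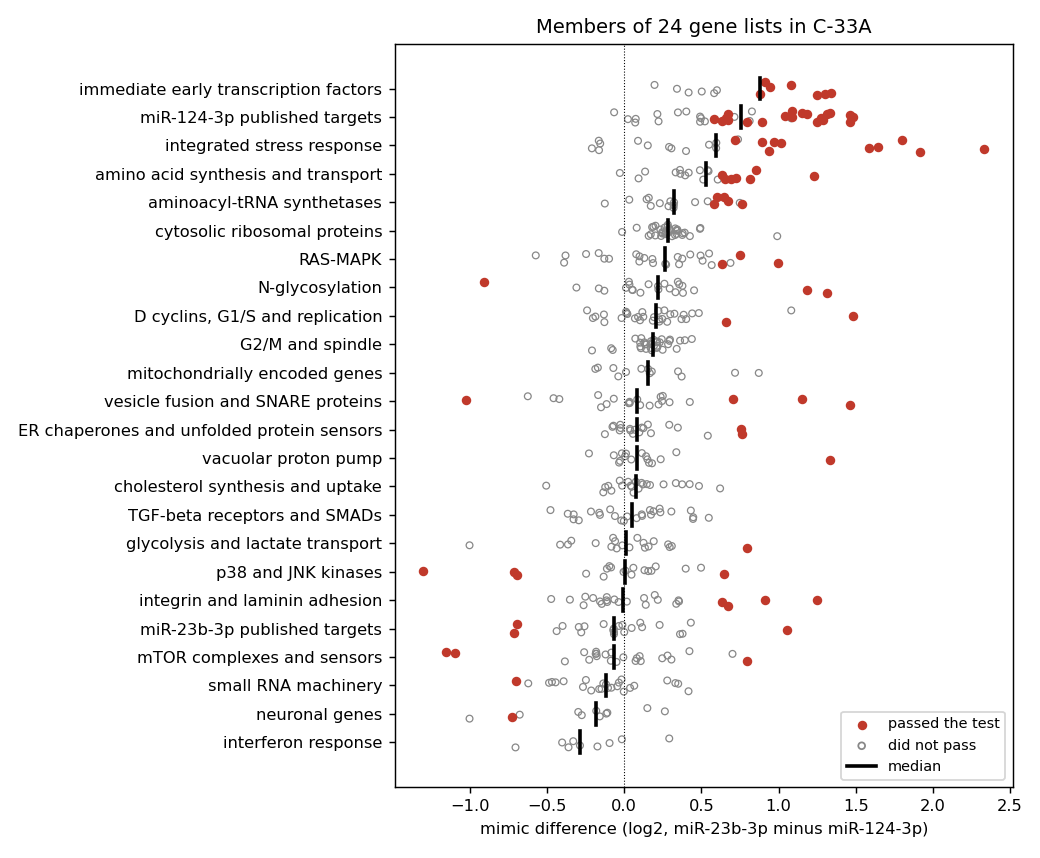
Mimic difference (log2, miR-23b-3p minus miR-124-3p) of every compared member of 24 gene lists in C-33A, ordered by list median (black bars); red points passed the test over all genes and open points did not. The lists of immediate early factors, published miR-124-3p targets and stress response genes have medians of 0.88, 0.75 and 0.60, and the list of interferon response genes has the lowest median, -0.29.

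Most published miR-124-3p targets had positive differences. Of 36 compared, 20 passed as higher with miR-23b-3p and 0 as lower, against 1.74% and 0.516% of all genes. Differences above 0 numbered 35, against 53.5% of all genes, and the median was 0.75. This list was drawn up from background knowledge with earlier results of these libraries known, so its direction is not independent evidence. CD164, a sialomucin of endosomes, stood at 416 CPM with miR-23b-3p, 154 CPM with miR-124-3p and 426 CPM in the control (1.46, SE 0.18, adjusted p = 1.55e-12). VAMP3, a SNARE of recycling endosomes, stood at 167, 61.5 and 152 CPM (1.46, SE 0.18, adjusted p = 2.41e-12), and ATL3, a membrane shaping GTPase outside the list, at 248, 92.8 and 249 CPM (1.45, SE 0.18, adjusted p = 2.86e-12). ITGB1, the beta 1 integrin chain, stood at 457, 196 and 453 CPM (1.25, SE 0.18, adjusted p = 3.08e-09). In these 4 genes the miR-23b-3p level lay near the control, a little above it in VAMP3, and the miR-124-3p group stood apart. The pseudogene ITGB1P1 stood at 57.9, 22.8 and 58.5 CPM (1.37), and reads may be split between it and ITGB1.

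CCND2, PLP2, AAMDC, PLOD3 and ATP6V0E1 also lay above the control with miR-23b-3p and below it with miR-124-3p. None of these rises with miR-23b-3p passed the deposited FDR threshold against the control. Of the falls with miR-124-3p, that of PLOD3 missed it (0.123) and the others passed. CCND2, cyclin D2, stood at 38.3 CPM with miR-23b-3p, 14 CPM with miR-124-3p and 28 CPM in the control (1.48, SE 0.21, adjusted p = 2.59e-09). PLP2 and AAMDC, which are on no list, stood at 33.1, 12.2 and 22.4 CPM (1.47, SE 0.22, adjusted p = 1.45e-08) and at 14 CPM, 5.64 CPM and 11.8 CPM (1.34, adjusted p = 3.63e-05). PLOD3, a collagen lysyl hydroxylase, stood at 26.8, 11.2 and 19.5 CPM (1.29, adjusted p = 3.49e-06). ATP6V0E1, of the membrane sector of the vacuolar proton pump, stood at 82.6, 33.3 and 72.3 CPM (1.34, adjusted p = 2.16e-09), while the other 15 pump subunits and assembly factors had differences between -0.23 and 0.34 and did not pass. Further members that passed with differences above 1 were B4GALT1 (1.32), of galactose transfer, SERP1 (1.27), the oligosaccharyltransferase subunit MAGT1 (1.18), the SNARE STX10 (1.15), the ceramide synthase CERS2 (1.09), CTDSP1 (1.09) and the scaffold IQGAP1 (1.04). Among those under 1 were LITAF (0.89), the lactate transporter SLC16A1 (0.80), the laminin chain LAMC1 (0.67), STAT3 (0.67), CDK4 (0.66), CTDSP2 (0.64) and PTBP1 (0.58). LITAF, SLC16A1, LAMC1, STAT3, CDK4, CTDSP2 and PTBP1 lost their calls with errors added as independent.

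PTBP1 and PTBP2, splicing repressors of which PTBP2 takes over in neurons, lay in opposite directions in C-33A. PTBP1 stood at 282 CPM with miR-23b-3p, 191 CPM with miR-124-3p and 253 CPM in the control (0.58, SE 0.18, adjusted p = 0.0454). PTBP2 stood at 43.8 CPM with miR-23b-3p, 73.8 CPM with miR-124-3p and 46.0 CPM in the control (-0.73, SE 0.19, adjusted p = 0.00996). Both lost their calls with errors added as independent and with errors scaled up to the spread of the differences. PTBP1 also lost it with centring on the median and with recovered levels. In CaSki PTBP1 passed with a difference of 0.67, while PTBP2 had 0.06 and did not pass. PTBP2 was the member of 11 neuronal genes that passed, and the list's median was -0.18 with 2 members above 0. Of all genes, 1.74% passed as higher and 0.516% as lower. ENO2, neuronal enolase, had a difference of -1.002 and did not pass. Outside the list, the neuronal septin SEPTIN3 stood at 8.38 CPM with miR-23b-3p, 18.5 CPM with miR-124-3p and 9.85 CPM in the control (-1.12, adjusted p = 0.000898), and the microtubule protein MAP1A at 10.4, 22.8 and 12.8 CPM (-1.11, adjusted p = 0.00042). In PTBP2, SEPTIN3 and MAP1A the miR-23b-3p level was near the control and the miR-124-3p level above it. Against the control, these rises with miR-124-3p missed a deposited FDR of 0.05 (0.104, 0.060 and 0.094).

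The most negative difference was that of FAM234B, at 21.5 CPM with miR-23b-3p, 70.8 CPM with miR-124-3p, 62.0 CPM with miR-218-5p and 55.4 CPM in the control (-1.69, SE 0.19, adjusted p = 9.69e-15). Its 3' UTR holds 3 sites for miR-23b-3p and 0 for miR-124-3p. SESN3, a sestrin that restrains mTORC1, stood at 34.4 CPM with miR-23b-3p, 77.9 CPM with miR-124-3p and 60.9 CPM in the control (-1.16, SE 0.19, adjusted p = 3.98e-07). EIF4EBP2, which blocks the cap-binding protein eIF4E until mTORC1 phosphorylates it, stood at 118, 258 and 217 CPM (-1.10, SE 0.18, adjusted p = 2.96e-07). Both genes were low with miR-23b-3p, and both lay above the control with miR-124-3p. Against the control, their falls with miR-23b-3p passed the deposited FDR threshold and their rises with miR-124-3p did not. SESN3 holds 5 sites for miR-23b-3p and 1 for miR-124-3p, and EIF4EBP2 holds 1 and 2. EIF4EBP1, the paralogue of EIF4EBP2, lay in the opposite direction at 128, 75 and 91.7 CPM (0.80, adjusted p = 0.00163). Over 24 genes of the mTOR complexes and their sensors, EIF4EBP1 was the 1 that was higher and SESN3 and EIF4EBP2 the 2 that were lower, with a median of -0.07. The shares over all genes were 1.74% higher and 0.516% lower.

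STX12, B4GAT1 and SEC23A were lower with miR-23b-3p, while most members of the lists holding STX12 and B4GAT1 did not pass. STX12, a SNARE of endosomes, stood at 39.3 CPM with miR-23b-3p, 81.3 CPM with miR-124-3p and 60.2 CPM in the control (-1.02, SE 0.19, adjusted p = 1.36e-05). B4GAT1, which builds the glycan of dystroglycan, stood at 25.2, 48.3 and 50.3 CPM (-0.91, adjusted p = 0.000522), and SEC23A at 244, 439 and 443 CPM (-0.82, adjusted p = 0.000522). In B4GAT1 and SEC23A the miR-124-3p level was at the control. Of 23 SNARE genes, VAMP3, STX10 and STX2 (0.70) were higher and STX12 lower. Of 23 genes on the N-glycosylation list, MAGT1 and B4GALT1 were higher. B4GAT1, grouped on that list although it builds the glycan of dystroglycan, was lower. Over all genes, 1.74% were higher and 0.516% lower. DDAH1, which degrades methylarginines, stood at 69.0, 149 and 135 CPM (-1.08, adjusted p = 7.77e-07), and DCP2, the decapping enzyme, at 182, 301 and 282 CPM (-0.70, adjusted p = 0.00712). DCP2 was the 1 of 25 small RNA machinery genes that passed, and AGO2 (-0.47), AGO4 (-0.49) and TNRC6C (-0.62) did not.

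MAP2K6, a kinase that activates p38, stood at 10.5 CPM with miR-23b-3p, 26.3 CPM with miR-124-3p, 12 CPM with miR-218-5p and 10.2 CPM in the control (-1.30, SE 0.24, adjusted p = 1.36e-05). Its miR-124-3p level was the high one, and its 3' UTR holds 0 sites for miR-23b-3p and 2 for miR-124-3p. The published miR-23b-3p targets MAP3K1 (22.6, 37.1 and 31.2 CPM, difference -0.69, adjusted p = 0.0352) and TAB3 (17.8, 29.7 and 24.2 CPM, -0.71, adjusted p = 0.0374), both in the same kinase pathways, were lower with miR-23b-3p than with miR-124-3p. MAPKAPK3, a kinase that p38 activates, was higher (0.65, adjusted p = 0.0348), and the other 15 of 19 p38 and JNK pathway genes did not pass. Of 23 published miR-23b-3p targets in all, MAP3K1 and TAB3 were lower, HES1, a Notch target, was higher (6.92, 3.41 and 6.38 CPM, 1.05, adjusted p = 0.023), and the median was -0.07. For both lists, the shares over all genes were 1.74% higher and 0.516% lower. With the trend on transcript length removed the differences were -0.58 for MAP3K1, -0.63 for TAB3 and 0.95 for HES1. Their calls were then lost, as they were with errors added as independent and with errors scaled up.

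The remaining genes of the 12 most negative were expressed at low levels. SLC1A1, a glutamate transporter, stood at 1.70 CPM with miR-23b-3p, 4.80 CPM with miR-124-3p and 3.64 CPM in the control (-1.48, adjusted p = 0.00276), and the lysosomal ubiquitin ligase RNF152 at 2.13, 5.91 and 3.39 CPM (-1.46, adjusted p = 0.00215). ADAM19, a membrane metalloprotease, stood at 4.56, 12.6 and 8.77 CPM (-1.45, adjusted p = 1.74e-05), and BTN3A2, a butyrophilin, at 3.73, 9.46 and 7.88 CPM (-1.32, adjusted p = 0.000439). PPM1H, a phosphatase, stood at 1.67, 4.35 and 2.6 CPM (-1.38, adjusted p = 0.0143), and KCNN1, a calcium-gated potassium channel, at 3.31, 7.37 and 3.99 CPM (-1.14, adjusted p = 0.0208). PPM1H and KCNN1 lost their calls when errors were scaled up to the spread of the differences. Of these 6, ADAM19 kept its call under the 7 alternatives run for named genes.

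Lists on growth and housekeeping showed small shifts and few calls, beside 1.74% of all genes called higher and 0.516% called lower. Among cyclins and G1/S genes 2 of 32 were higher (CCND2 and CDK4) and 0 lower, with a median of 0.21, and CDK6 had a difference of 1.08 that did not pass. None of 34 G2/M genes passed (median 0.19, 31 above 0), nor did any of 26 TGF-beta receptor and SMAD genes (0.05), 23 cholesterol genes (0.08), 13 mitochondrially encoded genes (0.16) or 9 interferon response genes (-0.29, 1 above 0). Of 36 cytosolic ribosomal protein genes 35 were above 0 with a median of 0.28, and 0 passed. Of 24 adhesion genes ITGB1, LAMC1, CD151 (0.91), a tetraspanin that binds laminin-binding integrins, and TLN1 (0.63), which links integrins to actin, were higher, and the median was -0.01, or 0.05 with the trend on transcript length removed. The median of 20 glycolysis genes was 0.01, with SLC16A1 the 1 that passed.

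In C-33A the median difference was below 0 in genes with a miR-23b-3p site alone and above 0 in those with a miR-124-3p site alone. Among the 10617 genes with an annotated 3' UTR, those with a miR-23b-3p site and no miR-124-3p site had a median difference of -0.10 (1725 genes), those with only a miR-124-3p site 0.16 (1210 genes), those with both 0.03 (628 genes) and those with neither 0.04 (7054 genes). The test was passed as higher by 6, 99, 21 and 84 genes of these classes and as lower by 41, 4, 11 and 10. With the trend on transcript length removed, the 4 medians were -0.05, 0.20, 0.09 and 0.02. In CaSki they were -0.02 for miR-23b-3p sites alone (1555 genes), 0.16 for miR-124-3p sites alone (1123 genes), 0.13 for both (581 genes) and -0.01 for neither (6418 genes), so the miR-23b-3p class there lay next to the class with neither. Leaving out genes with sites for the other microRNA, with 1, 2 and 3 or more miR-23b-3p sites the C-33A medians were -0.08, -0.15 and -0.21, and with 1, 2 and 3 or more miR-124-3p sites they were 0.15, 0.22 and 0.39, the last over 23 genes. In CaSki the medians in the same order were -0.02, -0.02 and 0.01 for miR-23b-3p and 0.15, 0.28 and 0.54 for miR-124-3p. The median length of the 3' UTR also differed between these classes, at 2409, 3503 and 4684 nt for miR-23b-3p and 2178, 3655 and 3352 nt for miR-124-3p. Among genes with neither site, the median difference was 0.10 in the group with the shortest 3' UTRs and -0.04 in that with the longest. The part of length in the medians by number of sites was not tested. Genes with an 8mer stood at -0.15 for miR-23b-3p and 0.27 for miR-124-3p. These medians describe the classes and were not tested.

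**Figure D3:**
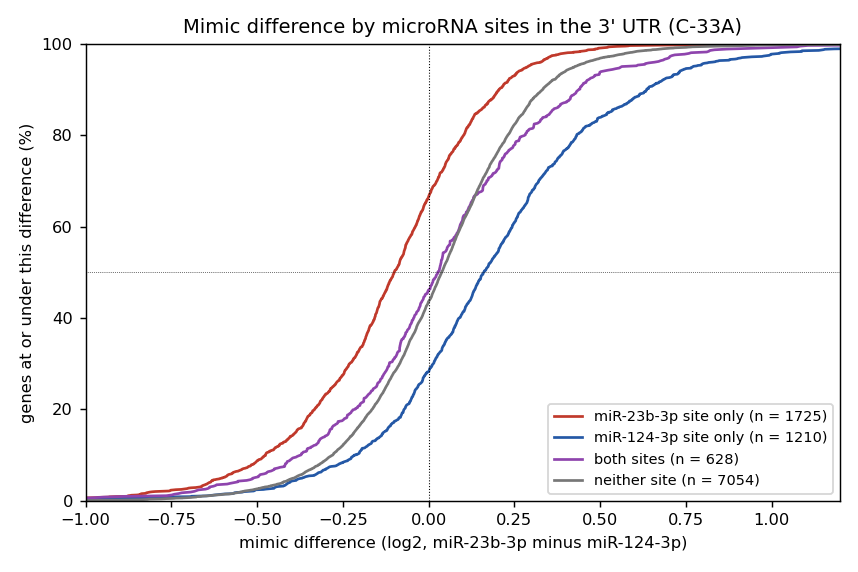
Share of genes (%) at or under each mimic difference (log2, miR-23b-3p minus miR-124-3p) in C-33A, by whether the 3' UTR holds sites for miR-23b-3p, miR-124-3p, both or neither. The curve of miR-23b-3p sites lies to the left (median -0.10) and that of miR-124-3p sites to the right (0.16), with the other curves between them.

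Of 210 genes higher with miR-23b-3p that had a 3' UTR, 57.1% held a miR-124-3p site, against 17.3% of all genes and 16.0% at the same 3' UTR lengths. A miR-23b-3p site was held by 12.9% of them, against 20.4% at the same lengths. Of the 66 genes lower with miR-23b-3p, the share with a miR-23b-3p site was 78.8%, while it was 22.2% over all genes and 37.1% at the same lengths. A miR-124-3p site was present in 22.7% of them, against 28.8% at the same lengths. No site of either kind was found in 84 of the 210 and 10 of the 66, against 7054 of all 10617 genes with a 3' UTR, a larger share than in either group. CHAC1, STC2, DDIT3, ATF3, SLC7A11 and JUN were among the higher genes with neither site, and TRIB3 had 1 for miR-124-3p.

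The difference also varied with how long the transcripts are. Its median stood at 0.14 under 1000 nt, 0.12 from 1000 to 2000 nt, 0.04 from 2000 to 4000 nt, -0.04 from 4000 to 8000 nt and -0.08 over 8000 nt, and Spearman's rho over 12524 genes, which share libraries, was -0.277. In the same length order, the medians against the control ran from -0.18 to 0.06 in the authors' deposited table for miR-124-3p and from -0.03 to -0.02, with 0.04 between, in the authors' deposited table for miR-23b-3p. In CaSki the relation had the opposite sign, with a rho of 0.208. With the trend on length removed, 256 genes passed, 221 of them among the 289. RNA integrity was not measured in the files used, and its part in the relation with length was not tested.

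The same contrast in CaSki used none of the C-33A libraries, and 459 of 13018 genes (3.53%) passed there, 330 of them higher (2.53%) and 129 lower (0.991%) with miR-23b-3p. Of 216 genes higher with miR-23b-3p in C-33A and measured in CaSki, 182 had the same sign in CaSki, and of 58 lower genes 51 did, against 54.4% of all 11011 genes measured in both lines. In both lines 119 genes passed, which is 43.4% of the 274 C-33A calls measured in CaSki and 29.97% of the 397 CaSki calls measured in C-33A. Of these, 102 were higher and 15 lower in both lines, and RHOB and ANKRD1 went in opposite directions.

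Published miR-124-3p targets had a median difference of 0.75 in C-33A and of 0.75 in CaSki, where 28 of 36 passed, against 3.53% of all genes. ATL3 stood at 1.45 in C-33A and 1.56 in CaSki, VAMP3 at 1.46 and 1.42, CD164 at 1.46 and 1.34, and ITGB1 at 1.25 and 1.22. FAM234B (-1.69 in C-33A and -0.91 in CaSki), EIF4EBP2 (-1.10 and -0.97), STX12 (-1.02 and -0.76), SEC23A (-0.82 and -0.95) and DDAH1 (-1.08 and -1.52) passed as lower in both. None of these genes passed the test of a difference between the lines, which does not show that they respond alike.

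The lists of stress response, amino acid and immediate early genes had lower medians in CaSki. The stress response list had a median of 0.60 in C-33A and 0.10 in CaSki, where 2 of 22 passed, against 3.53% of all genes. The amino acid list had medians of 0.53 and 0.04, and 0 of 19 passed in CaSki. The tRNA synthetases had medians of 0.32 and -0.03, with 0 passing in CaSki. Of the 13 immediate early factors compared in C-33A, 9 were compared in CaSki, and EGR1, NR4A1, FOS and KLF2 were not. Over those 9 the median was 0.60 in C-33A and 0.08 in CaSki, with 0 passing in CaSki. Over the stress response and amino acid genes compared in both lines (22 and 19), the C-33A medians were 0.66 and 0.54. In a two-sided normal test of the C-33A difference minus the CaSki difference, 15 of 11011 genes (0.136%) passed after Benjamini-Hochberg adjustment, and 6 of them were stress response genes. These were TRIB3 (2.33 in C-33A and 0.69 in CaSki, adjusted p of the line difference = 1.61e-05), CHAC1 (1.91 and 0.12, adjusted p = 6.74e-05), STC2 (1.80 and 0.08, adjusted p = 0.000287), DDIT3 (1.64 and 0.20, adjusted p = 0.0021), CEBPB (1.02 and -0.10, adjusted p = 0.00243) and ATF4 (0.94 and -0.11, adjusted p = 0.0279). SLC7A11 (1.23 and -0.34, adjusted p = 8.32e-09), PSAT1 (0.82 and -0.08, adjusted p = 0.0379) and JUN (1.34 and -0.12, adjusted p = 6.94e-06) also passed. With errors added as independent in both lines, SLC7A11 (adjusted p = 0.00154) and JUN (adjusted p = 0.0461) kept the call and the other 13 did not. With the trend on length removed in both lines, 10 of the 15 kept it, and DDIT3 (line difference 1.196 against 1.444 with the trend kept, adjusted p = 0.0798), ATF4 (0.90 against 1.05, adjusted p = 0.176) and PSAT1 (0.82 against 0.90, adjusted p = 0.139) were among those that did not. The C-33A p-values rest on a spread pooled over genes and the CaSki p-values on a less pooled one, so the lines were not measured with the same kind of error. The CaSki control also cancelled less closely, with an SD over genes of 0.117 between its recovered levels.

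**Figure D4:**
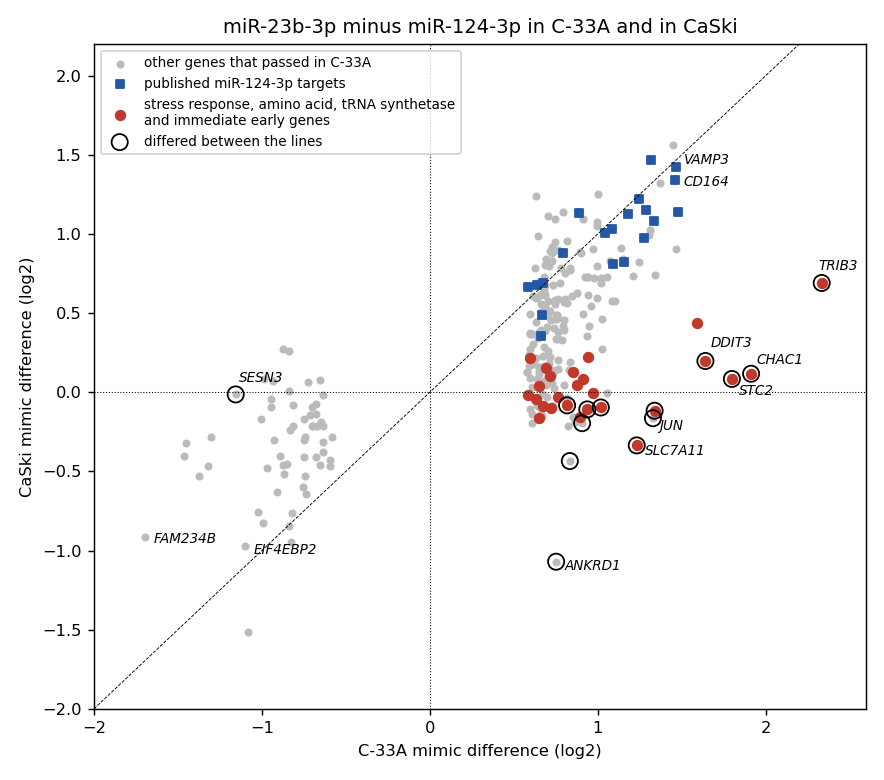
Mimic difference (log2) in CaSki against that in C-33A for the genes that passed in C-33A and were measured in CaSki; blue squares are published miR-124-3p targets, red circles stress response, amino acid, tRNA synthetase and immediate early genes, rings mark a difference between the lines that passed, and the dashed line marks equal values. CD164 (1.46 and 1.34) lies near the line of equal values, while CHAC1 (1.91 and 0.12) and SLC7A11 (1.23 and -0.34) lie near or under 0 in CaSki.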

How the data were processed

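PolyA RNA from transfected cells was sequenced. The submitters' processing notes name GRCh38 (hg38) and the tools edgeR 3.36.0, featureCounts 2.0.3, STAR 2.7.10b and FastQC 0.73. The authors deposited 1 edgeR table per comparison, with log2 fold change, average log2 CPM, F score, p-value and FDR for 61217 genes, per the file headers. The design foresaw this case, and no count model was fitted.

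Dividing each deposited log2 fold change by the normal quantile of its deposited p-value gave its SE. Variances per library from both tables were averaged and scaled to 3 and 2 libraries, which takes the control to cancel. Differences were tested by a two-sided normal test with Benjamini-Hochberg adjustment over all genes compared. In C-33A the deposited p-values have denominator degrees of freedom above 10000, so a gene with 1 odd library cannot be seen; in CaSki they are 38.2 for miR-23b-3p and 31.5 for miR-124-3p. The test was also run on simulated data in which the p-values used the spread that generated the values. That run could not show whether the recovered errors suit these data. Python 3.11.15, scipy 1.17.1 and GENCODE release 29 were used.

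Members and the 24 gene lists were chosen with earlier results of these data known. Named genes are the 12 highest and 12 lowest protein coding genes that passed, up to 4 per list, up to 6 shared by both lines, up to 4 that differ most between lines, up to 8 past the threshold in both tables and published targets that passed. Other genes named were chosen after their values were seen. Alternatives changed errors, centring, filters, threshold and the length trend. Of the listed symbols, 4734 were matched to no reference gene.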

Additional observations from a re-analysis of the deposited data

Results flagged for a closer look

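The mimic difference itself differed between the cell lines, by the two-sided normal test with Benjamini-Hochberg adjustment over 11011 genes, in 15 genes. The C-33A difference minus the CaSki difference was positive in 14 of them. In the stress response it was 1.64 for TRIB3, 1.80 for CHAC1, 1.71 for STC2, 1.44 for DDIT3, 1.11 for CEBPB and 1.05 for ATF4. Among amino acid genes it was 1.57 for SLC7A11 and 0.90 for PSAT1. Among immediate early genes and their relatives it was 1.46 for JUN and 1.49 for IER5L.

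The other genes were ANKRD1 (1.82), a muscle ankyrin repeat protein and known YAP target, RHOB (1.27), an endosomal GTPase, TNFRSF12A (1.10), the TWEAK receptor, ANKRD34B (1.75) and SESN3 (-1.14). ANKRD1 had a difference of 0.75 in C-33A and -1.07 in CaSki, and RHOB 0.83 and -0.43, each past the threshold in both lines. ANKRD34B stood at 0.19 in C-33A (adjusted p = 0.929) and -1.56 in CaSki, and SESN3 at -1.16 and -0.01. An unadjusted p under 0.05 in the same normal test was reached by 676 of the 11011 genes. With no difference at all, a share of 0.05 of genes would reach it, so this count does not show that these genes differed.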

How the results depend on the processing

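Of the 71 named genes, 34 kept their calls under the 7 alternatives run for named genes and none reversed under these. The call was lost by 37 with errors of both tables added as independent, a choice that counts the control's spread, which the main test takes to cancel. That choice left 61 of the 289 genes (53 higher, 8 lower), 87 of 459 in CaSki and 2 of 15 that differed between lines. At an adjusted p under 0.01, 145 genes passed (114 higher, 31 lower), and at 0.10 the lower genes numbered 118. With no filter on level 164 genes passed (129 higher, 35 lower), all among the 289. Errors scaled up to the spread of the differences, an alternative added after seeing the data, left 142 (113 higher, 29 lower). Smoothed errors gave 982 genes in CaSki, also added afterwards, and the cause was not tested. Centring, recovered levels, smoothed errors in C-33A, other filters and the length trend gave 256 to 309 genes.

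Among the shortest 3' UTRs, of 1 to 588 nt, also added afterwards, the median was 0.37 for miR-124-3p sites and 0.42 for both sites, the second over 4 genes. Of 168 recomputed list medians 5 changed sign, all of lists within 0.02 of 0. No paired analysis was possible because the files hold no values per library, and leaving out single libraries was not run for the same reason. Depth is unknown, and with 2 miR-124-3p libraries and pooled errors a gene's own spread is not seen.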

Other observations

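Replication-dependent histone genes, which make the core and linker histones of dividing cells, were grouped after their values were seen. Of 50 compared in C-33A, 22 were higher with miR-23b-3p than with miR-124-3p and 0 were lower, against 1.74% and 0.516% of all genes. Their median difference was 0.57, with 47 above 0. H2BC4 stood at 1093 CPM with miR-23b-3p, 655 CPM with miR-124-3p and 875 CPM in the control (0.76), and the linker histone H1-3 at 966, 588 and 822 CPM (0.74). In CaSki 0 of 48 passed and the median was 0.09. These transcripts are short, with a median length of 642 nt, and mostly lack polyA tails, while the libraries were enriched with oligo(dT). The part of tailing, length and RNA quality in these values was not tested.

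Enzymes of mitochondrial fatty acid oxidation, also grouped after their values were seen, had 6 of 19 members higher with miR-23b-3p, 0 lower and a median of 0.29. Of all genes, 1.74% were higher and 0.516% lower. HADHB stood at 151 CPM with miR-23b-3p, 80.1 CPM with miR-124-3p and 153 CPM in the control (0.94), and ECI2 at 33.8, 18.4 and 38.6 CPM (0.90). HADHA (0.75), HSD17B10 (0.77), HADH (0.74) and ACAA2 (0.60) were the others. In CaSki, 3 of 19 passed as higher, against 2.53% of all genes, with 0.73 for HADHB, 0.88 for ECI2 and 0.55 for HADHA.

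SKP2, the F-box protein that marks CDKN1B for decay, stood at 157 CPM with miR-23b-3p, 84.6 CPM with miR-124-3p and 151 CPM in the control (0.91 in C-33A and 1.09 in CaSki). VIM, vimentin, had a difference of 0.71 in C-33A and 1.11 in CaSki. APAF1, the apoptosome scaffold, stood at 44.7, 80.5 and 69.9 CPM (-0.82 in C-33A and -0.76 in CaSki).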
